A study of Mus musculus with 18 samples.

Results

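The response of messenger RNA to 6h of macroH2A2 induction was read from 6 of the 18 samples of the series, the 3 RNA libraries labelled 6h and the 3 labelled 0h, over the 13785 genes with enough counts to be tested. All 6 libraries came from 1 cell line, dermal fibroblasts taken from newborn (P0) male 129/S6 mice and immortalized with SV40 (iDF, passages 20-30). The line is labelled macroH2A1/2 double knockout and carries a dox-inducible macroH2A2-GFP transgene, at 0h as well as at 6h. The 6h cells had received 0.5 ug/ml of doxycycline for 6 hours and the 0h cells none. Cells without the transgene that received doxycycline were not analysed here, so effects of the drug and of the histone cannot be told apart. The series text calls the replicates biological, without saying whether they were separate cultures, so p-values measure the spread between these libraries.

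MacroH2A proteins are variants of the histone H2A that carry a large globular macro domain behind the histone fold. They replace ordinary H2A in nucleosomes, are found over broad, mostly silent stretches of chromatin, and are best known from the inactive X chromosome and from the maintenance of differentiated cell states. MacroH2A2 (gene H2afy2) and macroH2A1 (gene H2afy) are the products of separate genes.

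Values are counts of reads on the strand of the gene, scaled to CPM, the count of a gene per 1e6 counts of its library, with library sizes corrected by TMM. CPM are not divided by transcript length, so levels are compared between libraries and not between genes. Log2 changes are 6h over 0h with their standard error (SE), and a gene is called up or down where the adjusted p of edgeR's quasi-likelihood test (Benjamini-Hochberg over all tested genes) is under 0.05, with no minimum fold. The 6h libraries held 37793178, 33288109 and 30376573 counts over genes, and the 0h libraries 34629331, 32684257 and 33199649. In bulk RNA a smaller share of some cells and less RNA per cell cannot be told apart.

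Defining markers of fibroblasts were mostly present. Of 14 defining fibroblast markers 12 were tested, and the list summed to 14730 to 14920 CPM (without TMM) at 6h and 15210 to 15470 CPM at 0h. Fn1, Vim, Col1a1 and Col1a2 held most of that sum. Fap, a fibroblast surface protease, and Lum, a matrix proteoglycan, stood under 1 CPM in every library. Dcn, another matrix proteoglycan, stood at 1.27 to 2.32 CPM. Of the 12 tested markers 3 were called up and 6 down. Lists of keratinocyte, endothelial and mural, macrophage and leukocyte, melanocyte and Schwann, and muscle and adipocyte markers had 8 to 10 of 11 or 12 members under a mean of 1 CPM, and 2 to 6 members in each list had no count in any library, among them Krt5, Cldn5, Adgre1, Sox10 and Myod1. The keratinocyte markers summed to 7.57 to 8.98 CPM at 6h and 7.08 to 7.34 CPM at 0h. Sums were 214.5 to 222.4 CPM at 6h and 220.5 to 228.3 CPM at 0h for the endothelial and mural list, 4.02 to 4.30 and 3.68 to 4.04 CPM for the macrophage list, 4.84 to 5.86 and 5.31 to 6.09 CPM for the melanocyte list, and 111.1 to 116.4 and 111.1 to 114.8 CPM for the muscle and adipocyte list. Cspg4 (154.1 to 167.4 CPM over the 6h and 0h libraries) and Mcam (58.6 to 62.9 CPM) held most of the endothelial and mural sum. Lpl (90.4 to 100.5 CPM) held most of the muscle and adipocyte sum. Of the markers of other cells, Epcam, Mrc1 and Acta1 were called up. Their part in the results was not tested.

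The induced gene answered in every 6h library. H2afy2 had 823, 833 and 805 CPM in the 6h libraries, against 10.5, 25.3 and 9.61 CPM in the 0h libraries, and the groups did not overlap. Its log2 change was 5.77 ± 0.14 (SE, adjusted p = 1.6e-22), and 0h replicate 2 held more than the other 0h libraries. Reads of the transgene and of the gene on chromosome 10 are counted together, and the deleted part of the gene was not examined. H2afy had 56.0, 58.2 and 56.6 CPM in the 6h libraries, against 54.8, 56.9 and 58.5 CPM in the 0h libraries, groups that overlapped, with a log2 change of 0.0041 ± 0.044 (SE, adjusted p = 0.95). Reads on the strand opposite to H2afy2 numbered 59, 64 and 67 in the 6h libraries and 137, 124 and 124 in the 0h libraries, which was 0.192 to 0.278% of the reads on both strands at 6h and 12.9 to 27.7% at 0h.

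The early response was wide and shallow. At 6h 2868 genes were called up, 20.8% of those tested, and 2509 down, 18.2%, so that 39.0% were called in either direction. The median log2 change over all tested genes was 0.0067. The size of the log2 change had a median of 0.20 among called genes, and 10% of them exceeded 0.52. Only 201 genes were called up by 1.5-fold or more, 1.46% of those tested, and 241 down, 1.75%. A change of 2-fold or more was called in 68 genes up and 65 down, and of 3-fold or more in 14 up and 10 down. The libraries of the groups did not overlap for 47.9% of tested genes.

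Promoters of genes that the results below return to are given first, as RefSeq (GRCm38.p6) has them, 250 bases before to 50 bases after an annotated start, written 5′ to 3′ on the strand of the gene. They were chosen to show the letters that were counted in promoters by class of change. Capitals mark a TATA box (TATAAA, starting 20 to 40 bases before the start, gene strand only), the AP-1 letters TGANTCA, the cyclic AMP response element TGACGTCA, the ETS letters CCGGAAGT or the E-box CACGTG, the last 4 on either strand; none of these strings contains another. Serpinb2, which encodes plasminogen activator inhibitor 2 and had the largest increase after H2afy2 among genes of 10 CPM or more, has a window at chr1:107511173-107511472 on the plus strand, inside the span of the gene's RefSeq entry. The window of Adamts1, a secreted metalloprotease gene that fell, is chr16:85803064-85803363 on the minus strand. The window of Hlf, a gene of the circadian PAR bZIP transcription factors that fell the most among genes of 10 CPM or more, is chr11:90390868-90391167 on the minus strand. Rrn3, the initiation factor of RNA polymerase I, rose and has its window at chr16:13780449-13780748 on the plus strand. Polr1e, a subunit of that polymerase, also rose and has its window at chr4:45018359-45018658 on the plus strand.
Serpinb2: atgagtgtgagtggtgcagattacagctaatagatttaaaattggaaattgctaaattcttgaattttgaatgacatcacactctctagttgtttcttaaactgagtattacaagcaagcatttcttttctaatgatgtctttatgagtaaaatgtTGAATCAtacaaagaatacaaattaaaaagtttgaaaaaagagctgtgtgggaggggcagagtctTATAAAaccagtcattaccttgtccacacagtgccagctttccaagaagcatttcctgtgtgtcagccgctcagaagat
Adamts1: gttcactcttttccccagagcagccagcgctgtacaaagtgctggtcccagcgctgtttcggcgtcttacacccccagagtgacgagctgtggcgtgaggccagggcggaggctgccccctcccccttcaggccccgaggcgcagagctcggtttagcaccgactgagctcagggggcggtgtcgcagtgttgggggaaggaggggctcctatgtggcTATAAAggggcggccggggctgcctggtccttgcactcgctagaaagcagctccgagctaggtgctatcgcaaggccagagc
Hlf: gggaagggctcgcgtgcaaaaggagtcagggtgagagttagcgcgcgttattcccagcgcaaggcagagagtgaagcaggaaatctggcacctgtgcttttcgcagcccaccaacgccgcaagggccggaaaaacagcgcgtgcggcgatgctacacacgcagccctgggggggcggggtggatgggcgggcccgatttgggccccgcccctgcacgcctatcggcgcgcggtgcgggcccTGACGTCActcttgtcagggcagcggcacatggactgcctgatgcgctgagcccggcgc
Rrn3: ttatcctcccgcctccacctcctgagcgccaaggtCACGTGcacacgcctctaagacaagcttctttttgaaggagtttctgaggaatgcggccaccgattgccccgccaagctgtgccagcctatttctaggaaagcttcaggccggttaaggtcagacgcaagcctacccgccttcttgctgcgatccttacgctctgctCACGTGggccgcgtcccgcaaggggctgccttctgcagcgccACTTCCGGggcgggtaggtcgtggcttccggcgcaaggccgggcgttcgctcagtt
Polr1e: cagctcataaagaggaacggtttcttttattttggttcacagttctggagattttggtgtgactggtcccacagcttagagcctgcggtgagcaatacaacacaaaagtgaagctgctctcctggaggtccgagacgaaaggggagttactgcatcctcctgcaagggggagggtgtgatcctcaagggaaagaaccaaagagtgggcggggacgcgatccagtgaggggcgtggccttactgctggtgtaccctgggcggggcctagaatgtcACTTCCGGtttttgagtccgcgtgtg
The Serpinb2 window held a TATA box 29 bases and AP-1 letters 94 bases before the start. The Adamts1 window held a TATA box 32 bases before the start, and the Hlf window a cyclic AMP response element 9 bases before it. The Rrn3 window held ETS letters 6 bases and E-boxes 48 and 215 bases before the start, and the Polr1e window ETS letters 24 bases after it. A match of letters is a description and not evidence that a factor binds.

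The largest increases after H2afy2 were taken among called protein-coding genes that averaged at least 10 CPM and had no overlap. Serpinb2 had 41.0, 37.3 and 36.8 CPM in the 6h libraries, against 3.31, 5.06 and 3.96 CPM in the 0h libraries, a log2 change of 3.23 ± 0.087 (SE). Postn, which encodes periostin of the extracellular matrix, had 27.0, 28.6 and 28.9 CPM in the 6h libraries, against 9.21, 9.78 and 10.5 CPM in the 0h libraries (1.52 ± 0.063). Has2, which encodes the main hyaluronan synthase of fibroblasts, had 149, 160.1 and 145 CPM in the 6h libraries, against 54.1, 56.4 and 53.6 CPM in the 0h libraries (1.47 ± 0.035). In each of these genes the lowest 6h library stood far above the highest 0h library.
Sema7a, a membrane-anchored semaphorin gene, had 39.8, 41.0 and 40.3 CPM in the 6h libraries, against 15.8, 15.7 and 17.9 CPM in the 0h libraries (1.29 ± 0.051). Smoc2, the gene of a calcium-binding matrix protein, had 48.0, 49.0 and 50.9 CPM in the 6h libraries, against 20.8, 23.4 and 20.6 CPM in the 0h libraries (1.19 ± 0.055). The growth factor gene Fgf2 had 89.4, 92.0 and 91.7 CPM in the 6h libraries, against 41.9, 39.8 and 38.9 CPM in the 0h libraries (1.18 ± 0.035). The lack of overlap was required by the choice of these genes, and replicates lay close together. Dusp5, whose product inactivates ERK kinases in the nucleus, had 94.8, 93.4 and 88.3 CPM in the 6h libraries, against 42.1, 42.1 and 43.9 CPM in the 0h libraries (1.11 ± 0.040). Adjusted p-values of edgeR's test for these genes and H2afy2 lay between 1.6e-22 and 5.2e-16.

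The largest decreases were taken by the same rule. Hlf had 7.46, 6.93 and 6.56 CPM in the 6h libraries, against 17.1, 15.9 and 17.0 CPM in the 0h libraries (-1.25 ± 0.075). Gas1, a membrane protein gene of hedgehog signalling, had 25.6, 20.7 and 25.6 CPM in the 6h libraries, against 60.2, 50.9 and 56.5 CPM in the 0h libraries (-1.22 ± 0.064). Adamts1 had 69.7, 68.8 and 68.0 CPM in the 6h libraries, against 146, 139 and 141 CPM in the 0h libraries (-1.04 ± 0.030). By that rule the 3 genes had lower CPM in each 6h library than in any 0h library.
Synpo, which encodes the actin-associated synaptopodin, had 7.73, 7.08 and 7.47 CPM in the 6h libraries, against 15.8, 15.1 and 16.4 CPM in the 0h libraries (-1.08 ± 0.071). Vegfd, a growth factor gene for lymphatic vessels, had 9.42, 7.998 and 9.11 CPM in the 6h libraries, against 16.9, 17.4 and 18.3 CPM in the 0h libraries (-0.99 ± 0.073). Slc1a3, a glutamate transporter gene, had 11.2, 8.70 and 10.6 CPM in the 6h libraries, against 18.9, 19.1 and 20.8 CPM in the 0h libraries (-0.95 ± 0.080). For these 3 genes too the lack of overlap was part of the rule. Emilin1, the gene of an elastic fibre protein, had 12.8, 11.9 and 13.3 CPM in the 6h libraries, against 24.5, 23.5 and 23.3 CPM in the 0h libraries (-0.91 ± 0.059), and Ank2, the gene of the membrane adaptor ankyrin B, had 7.36, 6.60 and 7.50 CPM in the 6h libraries, against 14.1, 12.5 and 13.5 CPM in the 0h libraries (-0.90 ± 0.092). Adjusted p-values of edgeR's test for the 8 decreases lay between 9.6e-21 and 6.3e-09.

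**Figure D1:**
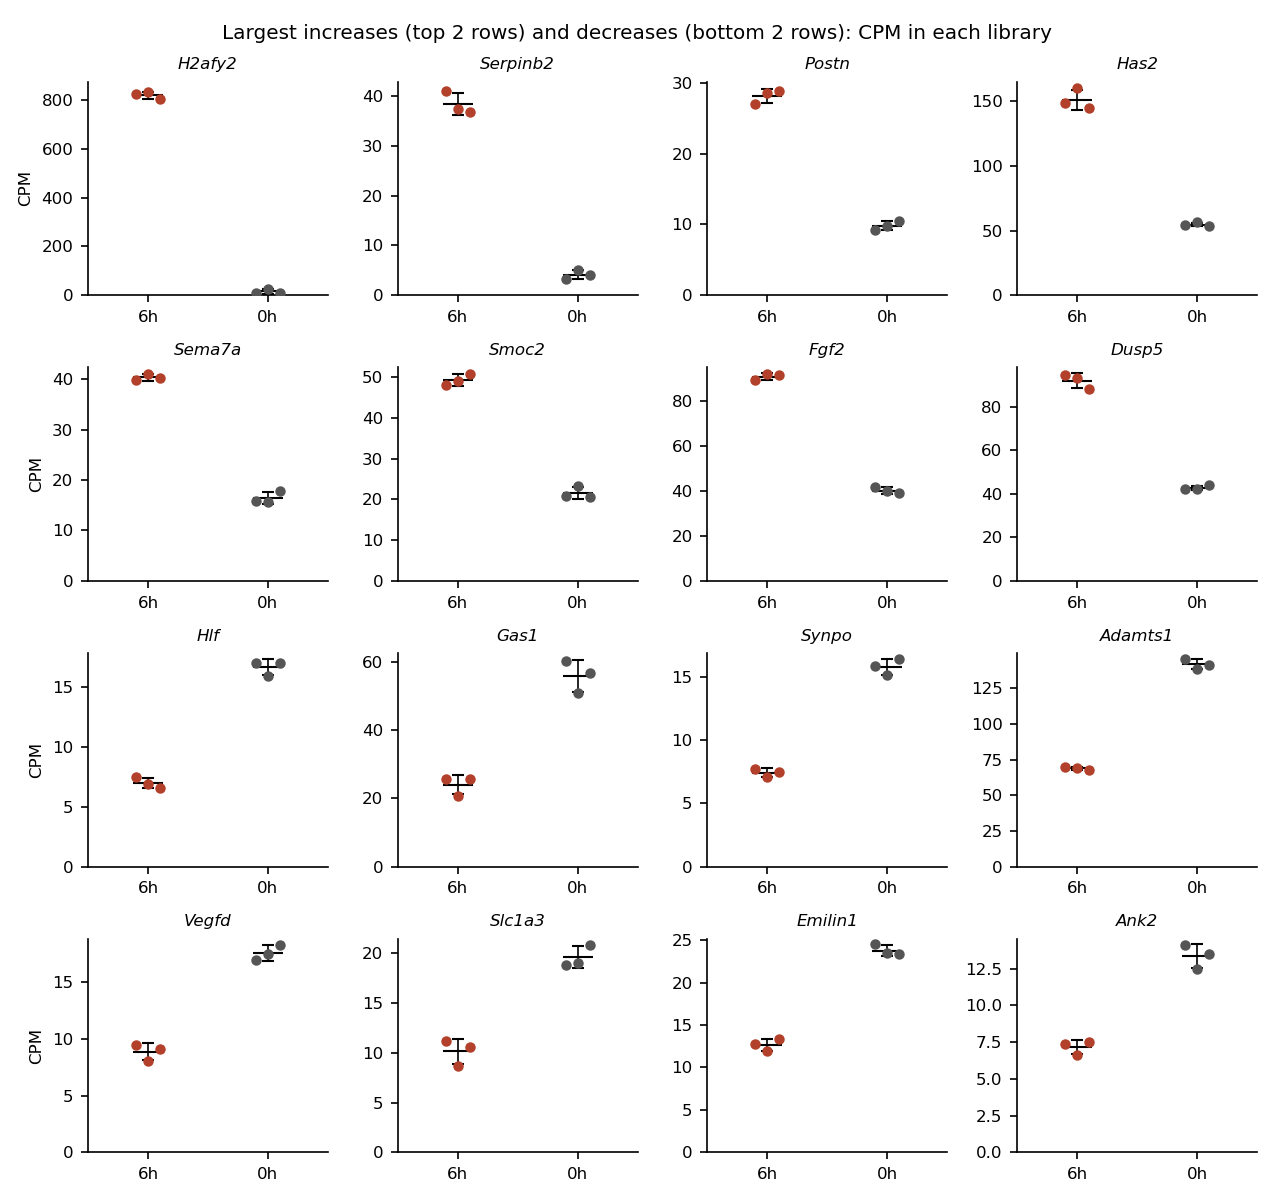
CPM (vertical axes, from 0) of the 8 largest increases and 8 largest decreases in each of the 3 libraries at 6h (left) and 0h (right); dots are libraries, and bars are the mean ± SD. The genes were chosen to have no 6h library within the range of the 0h libraries, and H2afy2 lies between 804.8 and 833.1 CPM at 6h.

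After 24h of doxycycline, in 3 further libraries set against the same 0h libraries, these genes other than H2afy2 stood nearer to 0h. The log2 change at 24h over 0h was 0.092 for Serpinb2, -0.032 for Has2, -0.16 for Postn and -0.32 for Smoc2, and -0.081 for Hlf, -0.30 for Gas1 and -0.17 for Adamts1. H2afy2 was higher still, at 6.84.

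Genes of the protein-making machinery were called up far more often than the 20.8% of all tested genes. The share called up was 2.83% in the lowest decile of genes by CPM and 38.5% in the highest, and lists were not matched for level. The lists had been drawn up with earlier results of these data known, and no list was tested as a set. Of 29 genes of RNA polymerase I and III, which make ribosomal and transfer RNA, 20 were called up and 2 down, with a median log2 change of 0.19. Polr1e had 53.3, 48.4 and 51.0 CPM in the 6h libraries, against 37.5, 36.5 and 37.6 CPM in the 0h libraries (0.45 ± 0.043), which put every 6h library above the 0h libraries. Polr1b rose by 0.28 ± 0.033 and Rrn3 by 0.25 ± 0.027. Maf1, the repressor of RNA polymerase III and a member of the list, fell, with 44.6, 41.4 and 44.1 CPM in the 6h libraries, against 55.8, 56.7 and 54.5 CPM in the 0h libraries (-0.36 ± 0.037).
Of 23 genes in the list of cytosolic tRNA synthetases, enzymes that load amino acids onto tRNA, 19 were called up and 0 down (median 0.16). The list also holds Eef1e1, a part of the synthetase complex that loads no amino acid itself. Farsb, for phenylalanine, averaged 139 ± 2.0 CPM at 6h and 105 ± 3.0 CPM at 0h (SD, n = 3), and Tars, for threonine, and Nars, for asparagine, changed by 0.34 ± 0.025 and 0.32 ± 0.023. Of 62 initiation and elongation factor genes 35 were called up and 1 down (median 0.11). Eif2b3, a subunit of the exchange factor that recharges eIF2, rose by 0.49 ± 0.037 and Eif2s1 by 0.29 ± 0.027, while Eif4g3 fell (-0.24 ± 0.046). Eef1e1, which is counted in this list as well as among the synthetases, rose by 0.45 ± 0.038. No member of these 3 lists was called by 1.5-fold or more.

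Among genes that supply RNA and protein synthesis, the nucleotide and folate lists were mostly called up, and the polyamine and amino acid transporter lists less so. Of 24 genes of purine and pyrimidine synthesis 15 were called up and 2 down (median 0.15), with Nme1 at 0.25 ± 0.031, Umps at 0.22 ± 0.026 and Gmps at 0.20 ± 0.025, and with Ctps2 down at -0.31 ± 0.041. Of 19 genes of serine, glycine and folate metabolism 12 were called up and 2 down (median 0.092), with Shmt1 (0.45 ± 0.031) and Mthfd2 (0.32 ± 0.029). Polyamine genes had 5 called up, 1 down and 8 not called of 14. Odc1, the rate-limiting enzyme of polyamine synthesis, had 339, 327 and 330.0 CPM in the 6h libraries, against 233, 239.8 and 249 CPM in the 0h libraries (0.46 ± 0.027), without overlap, and Oaz2, an inhibitor of that enzyme, fell by 0.34 on the log2 scale. The list of 23 amino acid transporters split, with 8 up and 5 down: the cystine carrier gene Slc7a11 rose by 0.64 ± 0.058 and the glutamate carrier gene Slc1a3 fell as given above.

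Genes of folding, translocation and nuclear transport were called up more often than down. Of 14 genes of the TCP1 chaperonin and its partner prefoldin, which fold actin and tubulin, 12 were called up and 0 down (median 0.18). Cct6a had 878, 872 and 858 CPM in the 6h libraries, against 731, 718 and 705 CPM in the 0h libraries (0.28 ± 0.023), Cct7 rose by 0.25 ± 0.027 and Cct2 by 0.22 ± 0.023, and Pfdn2 (-0.02) and Pfdn5 (0.03) were not called. All 8 subunits of the chaperonin itself, Tcp1 and 7 Cct genes, were called up, by 0.12 (Tcp1) to 0.28 (Cct6a). Of 37 genes of translocation into the ER and N-glycosylation 19 were called up and 1 down (median 0.11), with Sec11a, of signal peptidase, at 0.31 ± 0.038. Of 57 nuclear pore and transport genes 27 were called up and 3 down (median 0.071), with Rcc1, the nuclear exchange factor for Ran, at 0.33 ± 0.031 and the exportin gene Xpo5 at 0.26 ± 0.029. Of 46 proteasome genes 20 were called up and 1 down (median 0.077), with the activator gene Psme3 at 0.23 ± 0.027.

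RNA processing genes were not uniform. Of 50 genes of DEAD and DEAH box RNA helicases 29 were called up and 4 down (median 0.089). Ddx21, a nucleolar helicase, had 580.5, 566 and 559 CPM in the 6h libraries, against 457, 453 and 444 CPM in the 0h libraries (0.33 ± 0.024), and the groups lay apart. Ddx17, a helicase of splicing and transcription, went the other way, with 378, 394 and 381 CPM in the 6h libraries, against 506, 508 and 509 CPM in the 0h libraries (-0.40 ± 0.024). Genes of SR proteins and hnRNPs had 14 up and 5 down of 35 (median 0.029), with no log2 change larger than 0.17 in size; leaving out 1 replicate gave as few as 2 down (6h replicate 2). Host genes of small nucleolar RNAs, noncoding transcripts whose introns hold RNAs that guide ribosomal RNA modification, had 12 called up and 1 down of 17, and the highest median among lists with 5 or more tested members, 0.36. Snhg12 had 27.1, 26.7 and 25.6 CPM in the 6h libraries, against 16.1, 17.9 and 17.0 CPM in the 0h libraries (0.64 ± 0.059). Zfas1 rose by 0.49 ± 0.038 and Snhg5 by 0.36 ± 0.036. The 1 call down was Malat1, a long noncoding RNA that is in the list but is not such a host gene. It fell by 0.20 on the log2 scale. Malat1 was not called by DESeq2 (adjusted p = 0.091) or, by edgeR, without 6h replicate 1 (-0.14, adjusted p = 0.054).

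A survey of gene families by the shared start of their symbols, added after the data had been seen, covered 202 families with 8 or more tested protein-coding members. The 4 highest medians belonged to families of ribosome assembly and RNA decay: Rrp (median 0.32), Nop (0.28), Utp (0.25) and Exosc (0.23). All 8 tested Rrp genes were called up, from Rrp1 at 0.08 to Rrp12 at 0.49, as were 9 of 10 Utp genes, 7 of 8 Nop genes and 7 of 9 Exosc genes of the RNA exosome. Among 9 Tomm genes of the outer mitochondrial import pore 6 were called up and 1, Tomm34, down. The lowest median, -0.40, belonged to the Abca family of lipid transporters, in which Abca2, Abca3, Abca7 and Abca9 fell by 0.41, 0.39, 0.49 and 0.86 on the log2 scale and Abca1 (-0.06), Abca4 (0.06), Abca5 (-0.06) and Abca8b (-0.43) were not called.

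Genes of lysosomes, autophagy, F-box proteins and TRIM ligases were called down more often than up, unlike the proteasome genes given above. Of 42 genes of lysosomal enzymes and membrane proteins 20 were called down, against 18.2% of all tested genes, and 1 up (median -0.089). The count down was 10 without 6h replicate 1, 11 without 6h replicate 2, and 13 when 0h replicate 2 or 0h replicate 3 was left out. Arsa, the lysosomal arylsulfatase A, had 17.3, 16.5 and 17.6 CPM in the 6h libraries, against 23.7, 24.5 and 24.3 CPM in the 0h libraries (-0.49 ± 0.052), the groups apart. Gaa, which breaks down glycogen in lysosomes, fell by 0.27 and Tpp1, a lysosomal peptidase, by 0.24 on the log2 scale, and Cd63, a tetraspanin of late endosomes, was called up at 0.10 ± 0.026. Of 37 autophagy genes 11 were called down and 3 up (median -0.043), with Atg2a at -0.32 ± 0.041 and Wipi1 at -0.23 ± 0.031. F-box genes, the substrate receptors of SCF ubiquitin ligases, had 12 down and 2 up of 55, with Fbxo2 at -0.55 ± 0.071 and Fbxo6 at -0.39 ± 0.054. Their share down, 21.8%, was near the 18.2% of all tested genes, and their share up was 3.64%, against 20.8%. TRIM ligase genes had 12 down and 2 up of 36, with Trim56 at -0.30 ± 0.035 and Trim66 up at 0.78 ± 0.15. Ubiquitin-specific proteases had 14 up and 10 down of 45.

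Genes of fatty acid oxidation and peroxisomes were called down more often than up, and other oxidative lists were mixed. Of 41 genes of fatty acid oxidation and peroxisomes 16 were called down, 2 up and 23 not at all (median -0.092). Their share down was 39.0%, against 18.2% of all tested genes, and their share up 4.88%, against 20.8%. Cpt1a, which carries long-chain fatty acids into mitochondria, had 45.2, 43.1 and 40.8 CPM in the 6h libraries, against 59.2, 58.2 and 58.7 CPM in the 0h libraries (-0.44 ± 0.039). Its 6h libraries lay below all 0h libraries, and the catalase gene Cat and Acadvl, the very long-chain acyl-CoA dehydrogenase, fell by 0.23 and 0.21 on the log2 scale. Of 25 genes of the TCA cycle 7 were called up and 6 down, with Idh3a at 0.24 ± 0.025 and the NADP-dependent Idh1 at -0.63 ± 0.038. Genes of NRF2 and glutathione had 8 up and 12 down of 31, and both ferritin genes were among the decreases, Fth1 (-0.25 ± 0.024) and Ftl1 (-0.22 ± 0.028). Both ferritin genes have processed pseudogenes that can take reads from them. Of 28 ABC transporters 11 were called down and 5 up (median -0.059).

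**Figure D2:**
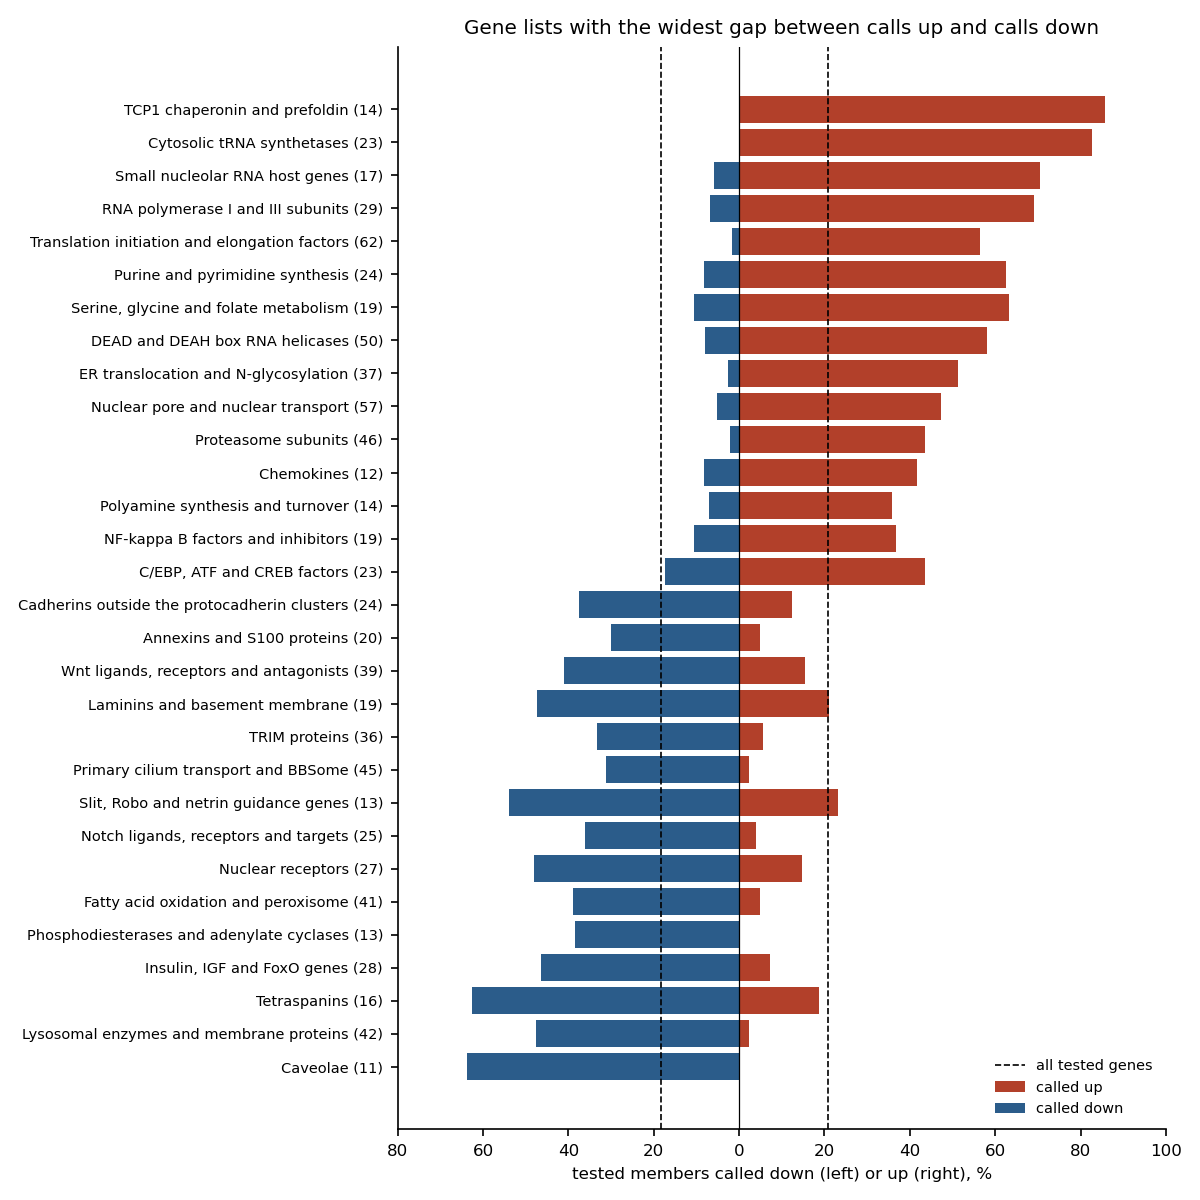
Share (%) of tested members called up (right) and down (left) for the lists with 10 or more tested members and the widest gap between both shares, with the number tested in brackets; dashed lines are all tested genes, 20.8% up and 18.2% down. Chaperonin and tRNA synthetase genes have the highest shares up and no member down, and caveolae genes the highest share down, 7 of 11, with no member up.

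Insulin and growth factor genes were called in both directions. Of all tested genes 18.2% were called down and 20.8% up. Shares down were 46.4% for insulin, IGF and FoxO genes, 26.7% for the EGF family, and 33.3% for PDGF, VEGF and angiopoietin genes. Shares up were 7.14%, 40.0% and 16.7% in the same order. Of 28 genes of insulin, IGF and FoxO signalling 13 were called down and 2 up (median -0.12). Irs2, an insulin receptor substrate, had 59.6, 63.3 and 60.7 CPM in the 6h libraries, against 86.5, 86.4 and 84.3 CPM in the 0h libraries (-0.49 ± 0.032), the related Irs1 fell by 0.44, and Cited2 fell by 0.37 on the log2 scale. Trib3, which inhibits AKT, was called up at 0.35 ± 0.050. Of 15 genes of the EGF family 6 were called up and 4 down, 4 of the increases by 1.5-fold or more. The ligand gene Ereg had 47.2, 47.1 and 46.8 CPM in the 6h libraries, against 25.4, 26.4 and 25.2 CPM in the 0h libraries (0.87 ± 0.042), the groups apart, the ligand gene Hbegf rose by 0.47 ± 0.027 and Errfi1, a feedback inhibitor of the EGF receptor, by 0.64 ± 0.028, while the receptor gene Erbb3 fell by 0.59. Vegfa had 218, 233 and 215.9 CPM in the 6h libraries, against 139, 145 and 150.5 CPM in the 0h libraries (0.62 ± 0.032), and in the same list of 18 genes Pdgfrb (-0.47 ± 0.031) and Angpt1 (-0.41 ± 0.051) were among 6 called down.

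Wnt, Notch and guidance genes were called down more often than up, and BMP genes up more often than down. Of all tested genes 18.2% were called down and 20.8% up. Shares down were 41.0% for Wnt, 36.0% for Notch, 53.85% for Slit, Robo and netrin, and 33.3% for semaphorin, plexin and neuropilin genes. Shares up were 15.4%, 4.0%, 23.1% and 8.33% in the same order. BMP genes had 32.4% up and 18.9% down, the latter near the share of all tested genes. Of 39 Wnt genes 16 were called down and 6 up (median -0.055), with the ligand gene Wnt10b at -0.60 ± 0.044, the receptor genes Fzd2 at -0.55 ± 0.040 and Fzd1 at -0.42 ± 0.063, and the R-spondin receptor gene Lgr6 up at 0.77 ± 0.056. Of 25 Notch genes 9 were called down and 1, the ligand gene Jag1 (0.24 ± 0.052), up. BMP genes had 12 up and 7 down of 37. Grem1, a secreted BMP antagonist, rose by 0.29 ± 0.023. Of 13 Slit, Robo and netrin guidance genes 7 were called down and 3 up (median -0.17). Of 24 semaphorin, plexin and neuropilin genes 8 were called down and 2 up, although Sema7a had one of the largest increases.

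Nuclear receptor genes had 13 called down and 4 up of 27. Shares down were 48.15% for nuclear receptor, 35.0% for glucocorticoid-responsive, and 38.5% for phosphodiesterase and adenylate cyclase genes, against 18.2% of all tested genes. Shares up were 14.8%, 30.0% and 0% in the same order, against 20.8%. Nr1d2, the clock repressor REV-ERB beta, had 71.2, 69.1 and 67.8 CPM in the 6h libraries, against 102, 97.5 and 96.2 CPM in the 0h libraries (-0.51 ± 0.032), and the retinoic acid receptor gene Rarg fell by 0.27. Among glucocorticoid-responsive genes 6 were called up and 7 down of 20, a near balance that turned to more up than down without 0h replicate 1. Phosphodiesterase and adenylate cyclase genes, which set cyclic AMP, had 5 called down and 0 up of 13, all by less than 1.5-fold.

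Genes of kinesins, the primary cilium, tetraspanins, caveolae, and ADAM and ADAMTS proteases were called down more often than up. Of all tested genes 18.2% were called down. Shares down were 35.1% for kinesin, 31.1% for cilium, 62.5% for tetraspanin, 63.6% for caveolae, and 28.6% for ADAM and ADAMTS genes. Kinesin genes had 13 down and 4 up of 37, and genes of transport in the primary cilium 14 down and 1 up of 45 (median -0.084), with Bbs9 at -0.58 ± 0.086 and Ift140 at -0.34 ± 0.041. Of 16 tetraspanins 10 were called down and 3 up (median -0.14), and 6 down without 0h replicate 3. Tspan5 had 59.6, 58.8 and 61.0 CPM in the 6h libraries, against 84.0, 85.6 and 87.9 CPM in the 0h libraries (-0.52 ± 0.033), and no library of one group entered the range of the other. Caveolae, flask-shaped membrane pits, had 7 called down and 0 up of 11 genes (median -0.13), with Cavin3 at -0.50 ± 0.046, Cav2 at -0.41 ± 0.038 and Cav1 at -0.36 ± 0.026. Of 28 ADAM and ADAMTS proteases 8 were called down and 5 up. Adamts5 had 58.4, 52.5 and 55.7 CPM in the 6h libraries, against 104, 97.1 and 94.2 CPM in the 0h libraries (-0.83 ± 0.040) and Adam19 had 94.9, 98.6 and 97.0 CPM in the 6h libraries, against 55.1, 55.3 and 56.7 CPM in the 0h libraries (0.80 ± 0.031), so that members of the same protease family parted.

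Transcription factor lists were mixed. Shares up were 43.5% for C/EBP, ATF and CREB, 36.8% for NF-kappa B, and 35.3% for KLF and SP genes, against 20.8% of all tested genes. Shares down were 17.4%, 10.5% and 23.5% in the same order, against 18.2%. The MYC and MAX network had 27.3% up and 27.3% down. Genes of the C/EBP, ATF and CREB factors had 10 up and 4 down of 23, with Xbp1 at 0.33 ± 0.041, Atf4 at 0.26 ± 0.024 and Atf6 at 0.25 ± 0.031, factors of the unfolded protein and amino acid responses. NF-kappa B genes had 7 up and 2 down of 19, and 4 up when 6h replicate 2 or 0h replicate 3 was left out. KLF and SP genes had 6 up and 4 down of 17, and with 1 replicate left out as few as 2 up and 1 down (0h replicate 2). Klf10, an early TGF-beta response gene, had 62.6, 65.0 and 69.0 CPM in the 6h libraries, against 45.2, 43.7 and 43.4 CPM in the 0h libraries (0.57 ± 0.044). In the MYC and MAX network 3 genes were called up and 3 down of 11, and Mxd4, a repressor partner of MAX, fell by 0.44. The 329 tested zinc finger genes named Zfp had only 41 called up and 39 down, 12.5% and 11.9%, fewer than among all tested genes in both directions, with a median of 0.0070; 24 were called down without 0h replicate 2.

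Chromatin lists were called in both directions. Histone deacetylases and sirtuins had 6 down and 1 up of 27. Hdac5, a class IIa deacetylase, had 58.0, 58.0 and 59.3 CPM in the 6h libraries, against 82.0, 85.5 and 81.1 CPM in the 0h libraries (-0.51 ± 0.032). Hdac7 fell by 0.31 on the log2 scale, while Hdac2 rose by 0.13 ± 0.026. Ncor1, a corepressor in the list that is not itself a deacetylase, fell by 0.11. Histone lysine demethylases had 8 up and 3 down of 27, but 3 up without 6h replicate 3 and 4 up when 6h replicate 1 or 0h replicate 1 was left out, with Kdm6b, which removes H3K27 methylation, at 0.37 ± 0.044. Histone lysine methyltransferases had 8 up and 10 down of 39, with Ehmt2, an H3K9 methyltransferase gene, at -0.40 ± 0.028. Remodellers of the SWI/SNF and CHD families had 8 up (5 without 6h replicate 3) and 12 down of 35, bromodomain genes 0 up and 3 down of 18, cohesin and condensin 1 up and 5 down of 25, and DNA methylation genes 3 up and 3 down of 18. Shares down were 22.2% for deacetylases and sirtuins, 20.0% for cohesin and condensin, and 16.7% for bromodomain and for DNA methylation genes. These lay near the 18.2% of all tested genes. Their shares up were 3.70%, 4.0%, 0% and 16.7% in the same order, against 20.8%.

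The size of the change depended on the level of the gene. In the lowest decile of tested genes by mean CPM (0.149 to 0.555) the median size of the log2 change was 0.33, but the median SE was 0.39, and only 2.83% of genes were called up and 3.84% down. In the highest decile (163.7 to 7232 CPM) the median size was 0.089 with a median SE of 0.026, and 38.5% were called up and 21.5% down. The median size among called genes was 1.15 in the lowest decile and 0.14 in the highest, and the smallest called change was 0.80 and 0.059. Among genes of a mean of 1 CPM or more the lowest and highest deciles differed in median size by 0.117, against 0.24 among all tested genes. What could be called thus differed with depth, and the fall in the size of change ran beside the fall in SE. Spearman's correlation over the 13785 genes between mean CPM and the size of change was -0.37, and between mean CPM and the signed change 0.084. Genes share the libraries and their depth, so no p is given.

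Calls up and down did not grow alike with level. Calls down outnumbered calls up in each of the 4 lowest deciles, as in the decile from 1.65 to 5.76 CPM, with 14.9% down and 8.48% up. Calls up outnumbered calls down in each of the 6 highest. Calls of 1.5-fold or more sat mostly at low level. The 3 lowest deciles held 39, 59 and 35 such increases and 53, 61 and 64 such decreases, and the highest decile held 10 and 1. The 5 called genes with the highest mean CPM changed little, with mt-Rnr2 at 0.075 ± 0.024, mt-Nd1 at 0.093 ± 0.027, mt-Cytb at 0.17 ± 0.036, the chaperone gene Hsp90ab1 at 0.074 ± 0.022 and the fibronectin gene Fn1 at 0.20 ± 0.030. Without 6h replicate 2 mt-Nd1 was not called (0.059), and leaving out 6h replicate 2 (0.054), 6h replicate 3 (0.070) or 0h replicate 3 (0.063) took mt-Rnr2 out of the calls.

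**Figure D3:**
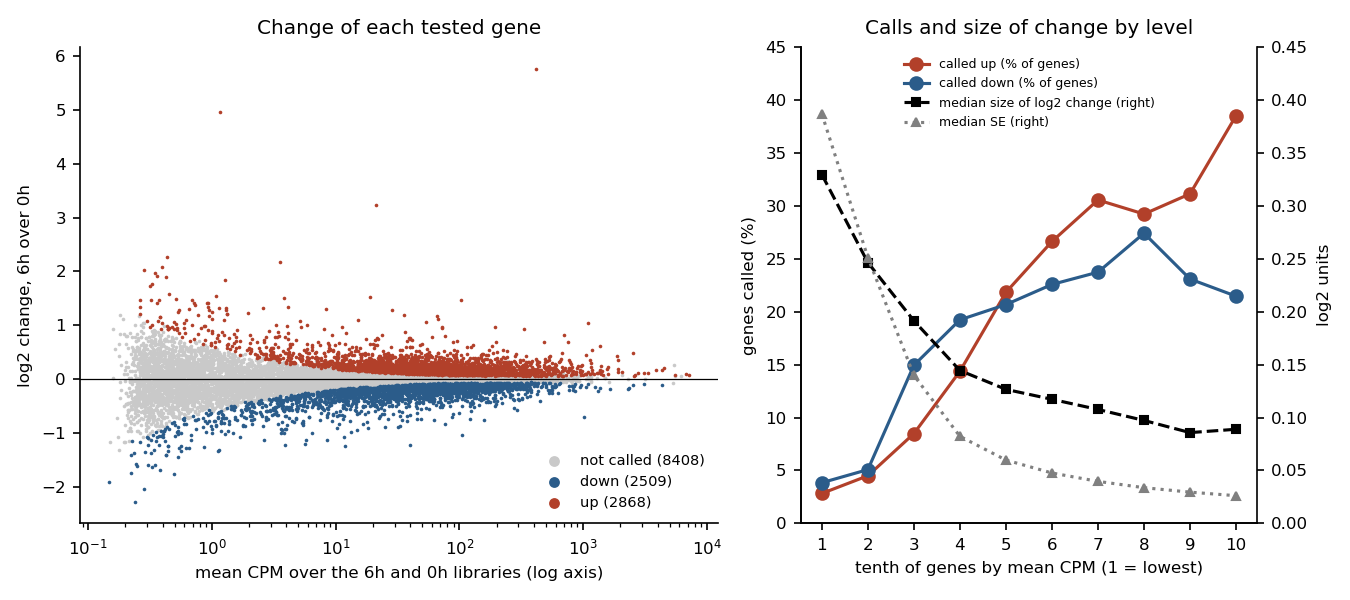
Left, log2 change (6h over 0h) of each tested gene against its mean CPM (log axis), coloured by call; right, share of genes called up and down (left axis, %) and median size and SE of the log2 change (right axis) in deciles of genes by mean CPM. The share called up climbs to 38.5% in the highest decile while the median size of change falls to 0.089.

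Gene length, the span of the RefSeq entry with introns, was examined in 11707 protein-coding genes (375 to 2270506 bases, median 24204), of which 23.3% were called up and 20.8% down. In the shortest decile (up to 4648 bases) 21.9% were called up and 18.7% down, with a median log2 change of 0.011. In the longest (121647 bases or more) 18.7% were called up and 25.4% down, with a median of -0.023. The difference of the medians, -0.034, fell in size to -0.021 when 6h replicate 3 was left out and to -0.022 when 0h replicate 3 was. It was -0.011 with the ribosomal and respiratory chain genes taken out, a choice made after seeing the data. The share called up was highest in the decile from 12698 to 17689 bases, at 26.1%. The longest decile also held the most increases of 1.5-fold or more, 32, against 9 to 18 in the others. Spearman's correlation between length and the signed change was -0.036.

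Calls up were fewer in the longest than in the shortest quintile in all quartiles of expression but the lowest. In the highest quartile by CPM (84.4 to 6193) the shortest quintile of genes (up to 8392 bases) had 44.8% called up and 18.9% down, with a median of 0.055, and the longest quintile 24.9% up and 26.3% down, with a median of -0.0061. In the quartile below, 33.7% were up and 25.7% down in the shortest quintile and 22.8% up and 30.8% down in the longest. In the next, 22.9% were up and 22.4% down in the shortest quintile and 18.5% up and 25.2% down in the longest. In the lowest quartile (under 9.54 CPM) 5.74% were up and 10.7% down in the shortest quintile and 9.31% up and 13.8% down in the longest, so that both shares were higher in the longest. Spearman's correlation between length and signed change was -0.16 in the highest quartile and -0.012 in the lowest. Without 257 ribosomal, mitochondrial ribosomal and respiratory chain genes, a choice made after seeing the data, the shortest quintile of the highest quartile had 38.5% up and 23.0% down, with a median of 0.040.

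**Figure D4:**
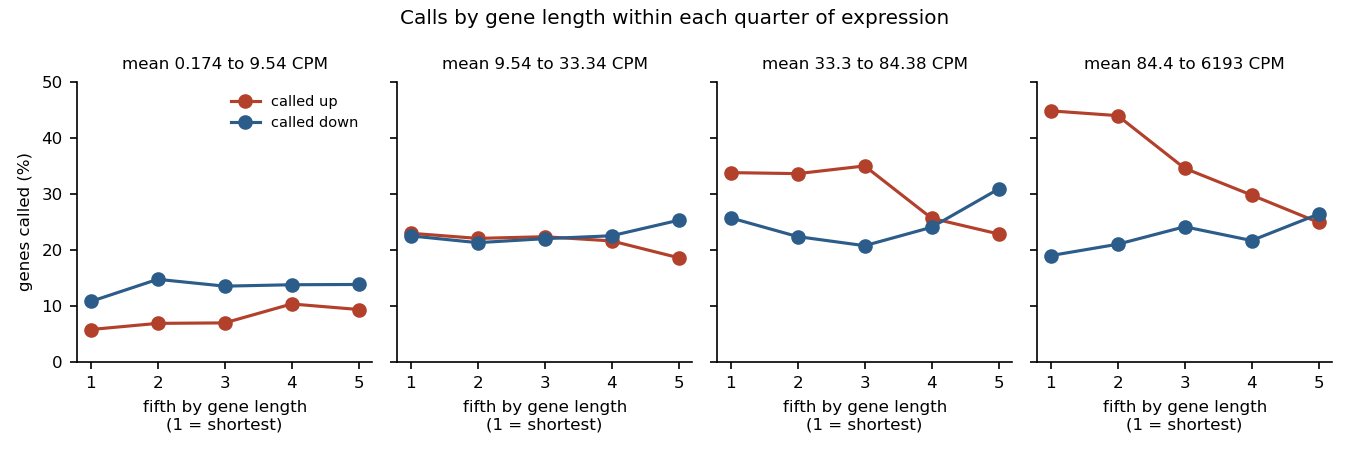
Share (%) of protein-coding genes called up and down in quintiles by gene length (horizontal axis, 1 is shortest), in 4 panels by mean CPM. In the panel of 84.4 to 6193 CPM 44.8% are up in the shortest quintile and 24.9% in the longest, and in the panel of lowest CPM 5.74% and 9.31%.

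Single genes at both ends of the length range moved either way. Of the longest called genes, Lrrc4c (1313504 bases), which encodes a synaptic adhesion protein, had 20.1, 19.8 and 21.7 CPM in the 6h libraries, against 9.10, 9.93 and 9.70 CPM in the 0h libraries (1.098 ± 0.070), and Tenm3 (1297160 bases), a teneurin gene, rose by 0.36 ± 0.038. Both had every 6h library above the 0h libraries. Ptprd, a receptor phosphatase gene of 2270506 bases, fell by 0.31 and Nkain2 by 0.48 on the log2 scale. Among the 5 shortest, Bola2 (0.23 ± 0.056), Imp3 (0.22 ± 0.043) and Mif (0.12 ± 0.029) were called up and Scand1 (-0.35 ± 0.070) and Higd2a (-0.13 ± 0.046) down. Leaving out 6h replicate 2 (-0.10), 0h replicate 2 (-0.12) or 0h replicate 3 (-0.12) took Higd2a out of the calls.

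Of 493 genes annotated as long noncoding RNA 12.8% were called up and 4.87% down, at a median level of 1.01 CPM, and of 788 pseudogenes 3.30% and 2.79%. The largest increases among genes not annotated as protein-coding were H2afy3, C430002N11Rik, Gm44274 and Trac. H2afy3, a transcribed pseudogene of the macroH2A family, had 2.39, 2.13 and 2.21 CPM in the 6h libraries, against 0.0570, 0.121 and 0.0298 CPM in the 0h libraries (4.96 ± 0.33). Reads that map to more than 1 place were not counted, and whether reads of the induced gene reach this copy was not tested. C430002N11Rik rose by 1.20 ± 0.23, Gm44274 by 0.90 ± 0.24 and Trac by 0.88 ± 0.22. The largest decreases were Gm3716 (-0.93 ± 0.23), mt-Tw (-0.83 ± 0.076), B930036N10Rik (-0.78 ± 0.23) and A330074K22Rik (-0.76 ± 0.17), all by under 2-fold.

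Chromosomes differed in the balance of calls. Chromosome 15 had 22.1% of 534 tested genes called up and 26.6% down, and chromosome 17 had 18.9% up and 26.4% down of 651. Chromosome 1 had 24.2% up and 14.7% down of 757, and chromosome 7 had the lowest share up, 15.3%, at the lowest median level, 15.5 CPM. The X chromosome, which macroH2A marks when inactive in female cells, had 17.9% up and 15.5% down of 458 in this male line.

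Regions of macroH2A2-GFP in the 6h ChIP-seq library (62192 regions, 1 library, so without a test) covered called and uncalled genes to similar extents. A region covered 50% or more of the gene in 15.2% of 2723 genes called up (exact 95% interval 13.9 to 16.7%), 15.96% of 2431 called down (14.5 to 17.5%) and 14.1% of 6549 not called (13.2 to 14.9%). These intervals cover counting over genes only. Genes called down by 1.5-fold or more were covered to that extent in 26.8% of 198 cases, and genes called up by 1.5-fold or more in 19.2%, 29 genes. Their mean coverage was 30.1% and 27.9% at 6h, against 19.2% in genes not called, but in the 0h library, which had not received doxycycline, it was already 13.4% and 13.7%, against 2.76% in genes not called. These genes were also of low level, with medians of 2.61 and 3.44 CPM against 20.7. Within the lowest quintile by CPM, 21.2% of genes called down, 22.8% of genes called up and 15.2% of genes not called were covered by 50% or more.

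Of the largest changes, Has2 (89.1%), Smoc2 (89.7%) and Serpinb2 (50.6%) among the increases and Synpo (81.6%) and Hlf (59.3%) among the decreases were covered by 50% or more at 6h. Sema7a, Dusp5, Gas1 and Emilin1 were covered by 0%. Large increases and large decreases were thus found both with and without regions. In the 0h library Smoc2 was already covered by 94.8%, Synpo by 45.7%, Serpinb2 by 35.2%, Has2 by 18.0% and Hlf by 13.2%.

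Promoter windows were searched for the same letters in genes with large changes, small changes and no call. Windows were matched for 9318 protein-coding genes, and in genes with several the one nearest to the outer end of the RefSeq entry was used. The TATA box stood in 4.90% of 102 windows (5 windows) of genes called up by 1.5-fold or more and 2.72% of 147 (4 windows) called down by as much. It stood in 0.776% of 2063 called up by less, 1.34% of 1785 called down by less and 0.939% of 5221 not called. In all 32851 windows of the table the share was 1.99%. AP-1 letters stood in 11.8% of windows of large increases and 8.16% of large decreases, against 4.29% of genes not called and 7.81% of all windows of the table. The Serpinb2 window printed above holds both.
ETS letters ran the other way, in 13.4% of small increases but 3.92% of large ones, 6.44% of small decreases, 0 of the 147 large decreases and 8.33% of genes not called (3.89% of all windows). E-boxes stood in 12.5% of small increases and 10.1% of genes not called (7.15% of all windows), and the cyclic AMP response element in 4.90% of large increases, 2.72% of large decreases and 3.37% of genes not called (1.79%).
Large changes sat at low level, where promoters also differ. Among genes under 10 CPM, AP-1 letters stood in 11.6% of 69 large increases, 11.4% of 105 small increases and 5.20% of genes not called. Among genes of 10 CPM or more they stood in 12.1% of 33 large increases (4 windows), 4.55% of small increases and 3.80% of genes not called. ETS letters under 10 CPM stood in 4.35% of large increases, 11.4% of small increases, 4.12% of small decreases and 4.87% of genes not called, and in 0 of 111 large decreases. In genes of 10 CPM or more they stood in 3.03% of large increases (1 window), 13.5% of small increases, 6.73% of small decreases and 10.2% of genes not called. The TATA box at 10 CPM or more stood in 2 of 33 large increases, 1 of 36 large decreases and 0.56% of genes not called. Under 10 CPM it stood in 3 of 69, 3 of 111 and 1.64%. The cyclic AMP response element stood in 0 of 33 large increases and 2 of 36 large decreases at 10 CPM or more. Under 10 CPM it stood in 5 of 69 and 2 of 111. No motif was tested.

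**Figure D5:**
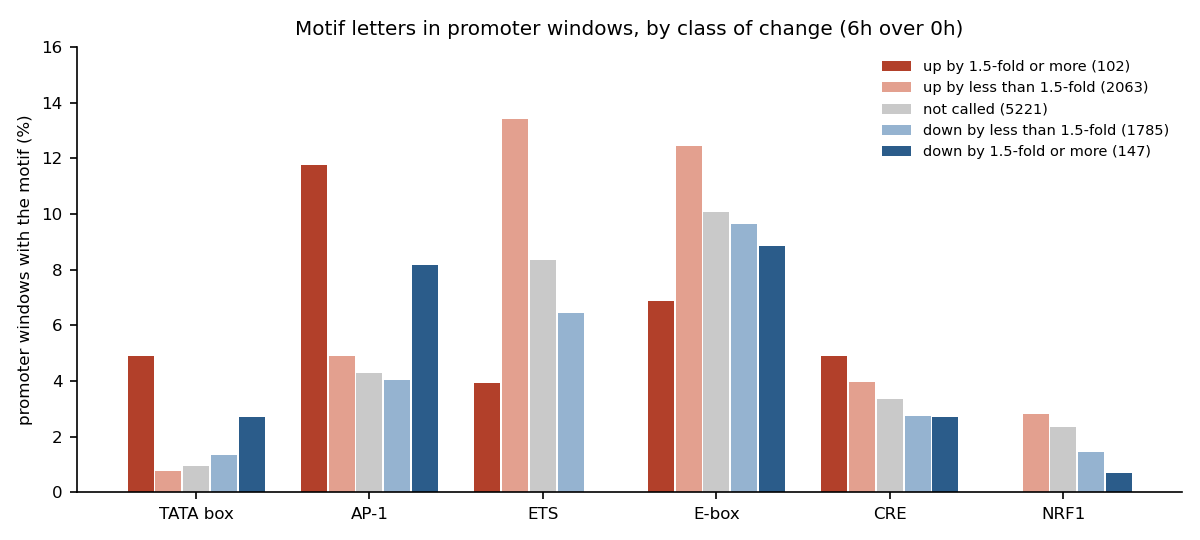
Share (%) of RefSeq promoter windows with the letters of 6 motifs, by class of change at 6h over 0h (number of windows in brackets). AP-1 letters are at 11.8% in large increases and 4.29% in genes not called, and ETS letters at 13.4% in small increases and 0 in large decreases.

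Base composition of the same windows moved with the direction of the call. In the quintile with the highest GC content (69.3 to 88.0%) 18.9% of genes were called up and 26.6% down, and in the quintile with the lowest (26.3 to 53.7%) 22.8% up and 16.5% down. The quintile with the fewest CG pairs (0 to 12) had 6.14% of genes called by 1.5-fold or more, at a median of 12.1 CPM, against 1.4% in the quintile with the most (32 to 65), at a median of 54.1 CPM.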

How the data were processed

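RNA was measured in 3 libraries each at 6h and 0h, from poly(A) RNA (1.5 ug, RIN over 9.8) with a directional kit and single-end reads of 80 bases, per the labels' protocols. The deposited counts per gene are whole numbers in an unstranded column and one column for each strand, per the layout of the files. STAR 2.5.2b and GRCm38.p4 are named in the submitters' processing notes. The column of the kit's strand was used, which held 96.6 to 96.9% of counts. Reads not counted for a gene made up 21.46 to 22.17% at 6h and 21.22 to 22.1% at 0h. The ChIP-seq region files, 1 library a time, hold a deposited score per region, which was not used; SICER 1.1 is named in the submitters' processing notes, and only positions (mm10) were read.

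Genes were filtered with filterByExpr in edgeR 4.0.16 (R 4.3.3), scaled by TMM and fitted with glmQLFit over all 9 RNA libraries, 24h included, which share 1 estimate of spread. The contrast of 6h over 0h was tested with glmQLFTest and adjusted by Benjamini-Hochberg. DESeq2 1.42.0 was an alternative. Scripts were tested on simulated data. No pair of replicates agreed within sampling noise (chi-square per degree of freedom 2.146 to 8.172). Lengths and promoters are from RefSeq GRCm38.p6, matched for 13147 of the tested genes.

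The question, gene lists and tests were chosen with earlier results of these data known. Named were H2afy2 and H2afy, the 8 largest changes each way among called protein-coding genes of 10 CPM or more without overlap, per list up to 3 called members of smallest p in the direction with more calls and 1 in the other, the 4 largest changes each way among called genes of 1 CPM or more not annotated as protein-coding, the 5 called genes of highest CPM, and the 5 longest and, of 10 CPM or more, 5 shortest called protein-coding genes. Family members named by symbol, uncalled members and Tcp1, Pfdn2 and Pfdn5 were chosen after their values were seen. A few genes and 1 list that these rules cover are not reported here.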

Additional observations from a re-analysis of the deposited data

Results flagged for a closer look

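The 16 largest changes at 6h differed from the changes of the same genes at 24h, tested as 24h over 6h in the same edgeR fit, since both times share the 0h libraries. The 24h change minus the 6h change, on the log2 scale, was -3.137 for Serpinb2, -1.676 for Postn, -1.51 for Smoc2, -1.50 for Has2, -1.35 for Fgf2, -1.293 for Sema7a and -1.102 for Dusp5. All 7 genes thus stood lower at 24h than at 6h. For Postn, Smoc2, Has2 and Fgf2 the difference was larger than the increase at 6h. The difference was 1.167 for Hlf, 1.004 for Vegfd, 0.917 for Gas1, 0.874 for Adamts1, 0.844 for Synpo, 0.808 for Ank2, 0.724 for Slc1a3 and 0.692 for Emilin1. These 8 genes thus stood higher at 24h than at 6h, and for Vegfd the difference was larger than the decrease at 6h. H2afy2 went further up at 24h, by 1.074. These genes had been chosen for their size of change at 6h. Adjusted p-values of edgeR's test of 24h over 6h lay between 1.0e-22 for Has2 and 6.6e-08 for Ank2.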

How the results depend on the processing

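Under the alternatives to the fit (13 in all, with each replicate left out in turn), 0 genes were called in the opposite direction, and the share of calls that were up stayed between 51.1 and 53.9%. DESeq2 called 2405 genes up and 2282 down. With 1 replicate left out 4667 to 4833 genes were called. Replicate numbers did not pair the libraries (correlations of -0.016 to 0.017 between 6h and 0h), and the fit with the replicate block called 5435. H2afy, not called in any fit, changed sign, to -0.0019 with RLE, -0.0018 with DESeq2 and -0.001 with only the 6h and 0h libraries, and it ranged over -0.021 to 0.0278 with 1 replicate left out. Of 343 named called genes 19 lost their call under some alternative, and 109 list counts, against 1997 others, moved by over 1.5 times. The median size of change in the lowest decile by CPM minus that in the highest was 0.24, 0.117 with genes of a mean of 1 CPM or more, 0.225 with unstranded counts, and 0.258 to 0.273 with 1 replicate left out. The median change of the longest minus the shortest decile was -0.034, -0.036 to -0.021 with 1 replicate left out, and -0.011 without ribosomal and respiratory chain genes. Within the highest quartile of CPM, with quintiles of length cut within that quartile, it was -0.060, and -0.068 to -0.057 with 1 replicate left out. With 80% of the gene covered by regions, shares were 4.08% of genes up, 4.11% down and 3.59% not called; the causes were not tested. Exon or coding length was not run. Low counts limit the calls: the smallest called log2 change was 0.80 in the lowest decile by CPM.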

Other observations

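Further families were called more often one way than the other at 6h. Of 24 cadherins outside the protocadherin clusters 9 were called down and 3 up, with a median log2 change of -0.12. Of 19 laminin and basement membrane genes 9 were called down and 4 up, of 49 Rab GTPase genes 14 down and 6 up (8 down without 0h replicate 3), and of 29 genes of tubulins and tubulin folding 8 down and 4 up. Shares down were 37.5% for cadherins, 47.4% for laminins, 28.6% for Rab genes and 27.6% for tubulins, against 18.2% of all tested genes. Chemokine genes had 5 up and 1 down of 12 (3 down without 0h replicate 2 and 2 without 0h replicate 3), and Mediator subunits, which link transcription factors to RNA polymerase II, 10 up and 4 down of 33. Shares up were 41.7% and 30.3%, against 20.8% of all tested genes. Shares over all genes also differed with level: in the deciles from 13.5 CPM upward, 21.8 to 38.5% were called up and 20.7 to 27.4% down.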
